A study of Homo sapiens with 12 samples.

Results

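Ribosomes are assembled mainly in the nucleolus, where RNA polymerase I transcribes a long precursor of the ribosomal RNAs and many proteins and small nucleolar RNAs (snoRNAs) fold, modify and cut it. The box C/D particles methylate the precursor and the box H/ACA particles turn uridines into pseudouridine, while a large early assembly, the small-subunit processome, and a separate line of factors build the small and the large subunit. Growing tumour cells use this machinery heavily. The genes described here are 40 that encode its parts: RNA polymerase I and its factors, the protein cores of both kinds of snoRNA particle, factors of small-subunit and large-subunit maturation, and nucleolar scaffold proteins. They were taken from a list of gene symbols, and each of the 40 symbols had 1 row among the 56104 gene rows of both deposited tables.

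The cells were HCT116, a colorectal carcinoma line, at passages under 15. PPM1G KO cells, which carry a knockout of the gene for a nuclear serine/threonine phosphatase, were compared with Ctrl cells. Each genotype was measured by 4sU-seq, in which RNA made during a 10 min pulse of 500 µM 4-thiouridine (4sU) is biotinylated and pulled down from 300 µg of RNA, and by RNA-seq of total RNA, with 3 libraries per group and 12 in all. The sample titles call the controls Ctrl_KO without saying what they carry, no other allele or treatment is named, and the labels do not say whether the KO cells are 1 clone or several. The 4sU-seq cells were seeded per biological replicate. For RNA-seq nothing says that the libraries came from separate cultures, so its p-values measure only the spread between these libraries, which may be technical. Spike-in RNA of the External RNA Controls Consortium (ERCC) was added to every library.

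Gene counts per library ran between 79403238 and 101884166 for 4sU-seq, and between 30962756 and 42479828 for RNA-seq. Levels are given as CPM (counts scaled to library size) scaled by the trimmed mean of M values (TMM), always for replicates 1, 2 and 3 in that order. Changes are log2 ratios of KO over Ctrl ± its standard error (n = 3 in each group). A gene was called higher or lower at a Benjamini-Hochberg adjusted p below 0.05 in edgeR's quasi-likelihood test over all genes tested. PPM1G itself had 98.9, 144 and 104 CPM in KO and 242, 271 and 235 CPM in Ctrl libraries of 4sU-seq (−1.11 ± 0.17, adjusted p = 0.00717), and in RNA-seq 97.9, 95.02 and 98.0 CPM in KO and 326, 293 and 331 CPM in Ctrl libraries of RNA-seq (−1.71 ± 0.06, adjusted p = 1.77e-10). KO replicate 2 of 4sU-seq stood apart from the other KO libraries: its counts differed from those of KO replicates 1 and 3 with a chi-square of 9.90 and 12.02 per gene, where the other pairs within a group of either assay gave 1.07 to 3.75. Counts and medians in nascent RNA are therefore given with and without it. The 9 epithelial markers summed to 1215 to 2062 CPM in KO and 1359 to 1672 CPM in Ctrl libraries of 4sU-seq, and to 2599 to 2711 CPM in KO and 2785 to 3187 CPM in Ctrl libraries of RNA-seq. Among them CDH1 (E-cadherin) was called higher in both assays (1.03 and 0.34), and CDX2, KRT18 and KRT19 were called lower in RNA-seq (−0.41, −0.33 and −0.19). Of the markers of other cell types, COL1A1 averaged 10.6 CPM in KO and 5.33 CPM in Ctrl libraries of 4sU-seq. PECAM1 averaged 9.12 CPM in KO and 4.26 CPM in Ctrl libraries of 4sU-seq, but 0.234 and 0.125 CPM in RNA-seq. The summed fibroblast markers reached 9.72 to 13.7 CPM in KO and 5.00 to 5.94 CPM in Ctrl libraries of 4sU-seq. COL1A1 made up most of that sum and was the 1 of these 7 markers that averaged at least 1 CPM there. The part of such differences in the results below was not tested.

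At steady state 35 of the 40 members fell, 1 rose and 4 (NHP2, NOP10, UTP14A and NPM1) were not called; of all 20415 genes tested in RNA-seq 48.4% were called, 26.8% as lower and 21.5% as higher. The members had a median log2 change of −0.39 in RNA-seq, against 0.00 for all genes tested and −0.05 for protein-coding genes. Of the 13653 protein-coding genes tested in RNA-seq 4835 were called lower and 3316 higher. In nascent RNA 37 members could be tested, of which 10 fell, 1 rose and 26 were not called, where 19.6% of 21236 genes were called, 6.98% as lower and 12.6% as higher. The median nascent change of these 37 was −0.48, against 0.05 for all genes and 0.02 for protein-coding genes. Without KO replicate 2, 31 of the 37 fell and 1 rose, and the members' median was −0.70. Of all genes 53.8% were called in that fit (28.4% as lower). It kept Ctrl replicate 2, whose deviations from its group mean went with those of KO replicate 2 (r = 0.91). With both left out 31 members fell, their median was −0.60 and 24.8% of all genes were called lower. The other fits without KO replicate 2 given below also kept Ctrl replicate 2. Of 16 alternatives tried for each nascent call, between 3 (UTP6) and 8 (POLR1A and GAR1) lost it. The nascent calls of lower members were all lost under scaling by ERCC counts (median −0.27, all genes 0.27) and without Ctrl replicate 1 or 2, by edgeR. In these 3 fits 0.207%, 1.23% and 1.46% of all genes were called lower, and 0, 17 and 14 members had an unadjusted p below 0.05. DESeq2 with its own scaling and all 6 libraries called 18 members lower, and 11.4% of all genes. In bulk samples less RNA per cell and fewer cells of a type cannot be told apart.

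**Figure D1:**
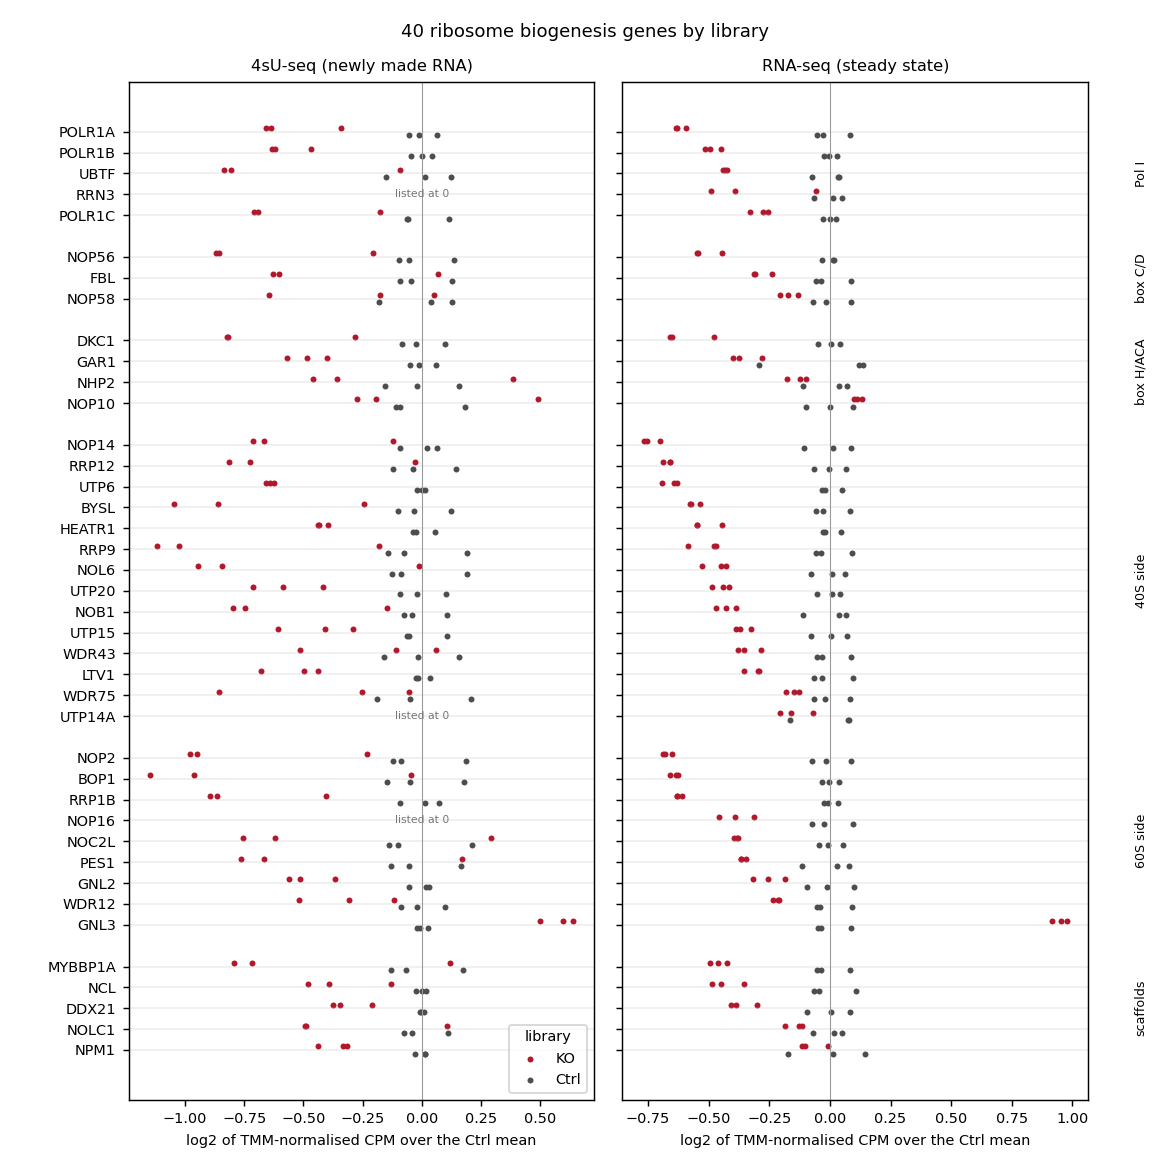
Each row is 1 of the 40 members and each point 1 library, placed by the log2 of its TMM-normalised CPM over the mean of the 3 Ctrl libraries; KO points lie above Ctrl points within a row, and rows are grouped by role. In RNA-seq the KO points of 33 members lie left of every Ctrl point, in 4sU-seq those of 22 members, and GNL3 alone lies far to the right in both assays.

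The share of all gene counts taken by the members was 0.488%, 0.615% and 0.505% in KO and 0.650%, 0.693% and 0.636% in Ctrl libraries of 4sU-seq. In RNA-seq the share was 0.962%, 0.948% and 0.959% in KO and 1.05%, 1.05% and 1.07% in Ctrl libraries. The groups did not overlap in either assay. The median level of the 37 members with 4sU-seq counts was 87.0, 120.6 and 96.4 CPM in KO and 129.0, 146 and 129 CPM in Ctrl libraries, so KO replicate 2 lay closest to Ctrl. In RNA-seq the median over all 40 was 152, 154 and 153 CPM in KO and 219, 199.7 and 211 CPM in Ctrl libraries. Each KO library was below the Ctrl mean for most members: 36, 29 and 34 of 37 in 4sU-seq, and 38 of 40 in each library of RNA-seq. The Ctrl libraries were below it for 29, 12 and 24 of 37 in 4sU-seq, and 22, 33 and 7 of 40 in RNA-seq. KO replicate 2 of 4sU-seq thus had the same count as Ctrl replicate 1.

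**Figure D2:**
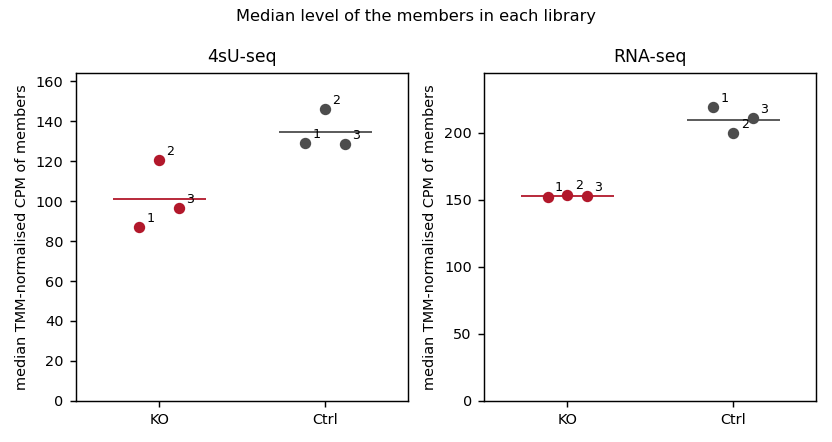
Points give the median TMM-normalised CPM of the members in each library (37 members in 4sU-seq, 40 in RNA-seq), numbered by replicate, and lines give the mean of 3 libraries. Every KO library lies below every Ctrl library; KO replicate 2 of 4sU-seq, at 120.6 CPM, lies nearest to Ctrl.

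Of RNA polymerase I and its factors, all 5 members were called lower in RNA-seq (median −0.43), and 2 of the 4 tested in nascent RNA. Of all genes 26.8% and 6.98% were called lower in these assays. POLR1A, which encodes the largest, catalytic subunit, had 199, 244 and 196 CPM in KO and 306, 323 and 298 CPM in Ctrl libraries of 4sU-seq. At steady state POLR1A had 158, 162 and 157 CPM in KO and 258, 239 and 235 CPM in Ctrl libraries of RNA-seq. It fell in both assays without overlap (−0.54 ± 0.12, adjusted p = 0.0227 in nascent RNA, −0.62 ± 0.06, adjusted p = 1.23e-06 at steady state). Its nascent call was lost under 8 of 16 alternatives, among them library size alone and leaving out any 1 library other than KO replicate 2. POLR1B, the second-largest subunit, had 116, 129.7 and 117 CPM in KO and 174, 185 and 179.6 CPM in Ctrl libraries of 4sU-seq. At steady state POLR1B had 124, 122 and 128 CPM in KO and 172, 174 and 179 CPM in Ctrl libraries of RNA-seq. Its groups were likewise apart in both assays and it fell in both (−0.57 ± 0.10, adjusted p = 0.0103 and −0.49 ± 0.05, adjusted p = 6.72e-06). UBTF, the factor that opens ribosomal DNA for the polymerase, had 13.4, 21.9 and 13.1 CPM in KO and 23.6, 25.4 and 21.0 CPM in Ctrl libraries of 4sU-seq. There KO replicate 2 lay above Ctrl replicate 3 and the gene was not called (−0.54 ± 0.23, adjusted p = 0.154). In RNA-seq UBTF had 196, 198 and 199 CPM in KO and 273, 253 and 274 CPM in Ctrl libraries, with no overlap, and fell (−0.43 ± 0.05, adjusted p = 2.03e-05). RRN3, which brings the polymerase to its promoter, was listed at 0 in all 4sU-seq libraries and had 79.1, 84.7 and 107 CPM in KO and 106, 112 and 115 CPM in Ctrl libraries of RNA-seq. KO replicate 3 reached into the Ctrl range, and the fall of RRN3 (−0.30 ± 0.09, adjusted p = 0.0145) was lost without KO replicate 1 or 2, with these libraries summed, and under scaling by ERCC or by library size alone. POLR1C, a subunit that RNA polymerase III shares, fell at steady state (−0.29 ± 0.05, adjusted p = 0.000598) and stood at −0.50 ± 0.18 in nascent RNA, not called, although every KO library lay below every Ctrl library. The steady-state call of POLR1C was lost under scaling by ERCC or by library size alone. With all 12 libraries in 1 fit the steady-state calls of POLR1C and UBTF were both lost.

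Without KO replicate 2 of 4sU-seq, all 4 polymerase I members tested were called lower in nascent RNA, from −0.70 ± 0.08, adjusted p = 0.000725 for POLR1B to −0.89 ± 0.11, adjusted p = 0.000884 for UBTF. Of 16 other subunits and factors of polymerase I, 2 fell in nascent RNA (10 without KO replicate 2), and 8 fell and 4 rose in RNA-seq. Over all genes 6.98% fell in nascent RNA (28.4% without KO replicate 2), and 26.8% fell and 21.5% rose in RNA-seq. The number of these factors that rose was near its share. POLR1E, a further subunit, fell most among those called by smallest p (nascent −0.89 ± 0.15, adjusted p = 0.00950; steady −0.73 ± 0.05, adjusted p = 2.33e-07), beside TBP, the TATA-binding protein that all nuclear polymerases use (−0.45 ± 0.12, adjusted p = 0.0459, and −0.67 ± 0.06, adjusted p = 2.54e-06) and, at steady state, CD3EAP (−0.68 ± 0.06, adjusted p = 6.75e-07). The 4 that rose in RNA-seq were POLR2H, POLR2K, TAF1B and TAF1D, by 0.25 to 0.29; their names were chosen after their values were seen.

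The box C/D core fell at steady state in all 3 members, where 26.8% of all genes did. None was called in nascent RNA by edgeR, which gave NOP56 alone an unadjusted p below 0.05, and DESeq2 called NOP56 there (−0.65, adjusted p = 0.0325). NOP56, a scaffold of the particle, had 143, 225 and 142 CPM in KO and 251, 285 and 243 CPM in Ctrl libraries of 4sU-seq. At steady state NOP56 had 256, 255 and 274 CPM in KO and 377, 366 and 378 CPM in Ctrl libraries of RNA-seq. The groups were apart in both assays; the nascent change missed the threshold (−0.61 ± 0.20, adjusted p = 0.0821) and the steady-state fall passed it (−0.51 ± 0.05, adjusted p = 4.36e-06). FBL, fibrillarin, the methyltransferase itself, had 112, 182 and 114 CPM in KO and 163, 189.6 and 168 CPM in Ctrl libraries of 4sU-seq, where KO replicate 2 lay inside the Ctrl range (−0.35 ± 0.21, adjusted p = 0.295). At steady state FBL had 226, 226 and 238 CPM in KO and 274, 269.6 and 298 CPM in Ctrl libraries of RNA-seq, without overlap, and fell (−0.29 ± 0.06, adjusted p = 0.000924). NOP58, the partner of NOP56, was called lower at steady state (−0.17 ± 0.06, adjusted p = 0.0224), a call that most alternatives lost, and was not called in nascent RNA (−0.23 ± 0.19, adjusted p = 0.455). Without KO replicate 2, NOP56 (−0.93 ± 0.10, adjusted p = 0.000510) and FBL (−0.69 ± 0.10, adjusted p = 0.00153) were called lower in nascent RNA and NOP58 was not (−0.13 ± 0.12, adjusted p = 0.404).

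Of the box H/ACA core, 2 of 4 members fell in RNA-seq (median −0.24) and 1 of 4 in nascent RNA (median −0.29). DKC1, dyskerin, the pseudouridine synthase, had 77.4, 112 and 77.2 CPM in KO and 134, 146 and 129 CPM in Ctrl libraries of 4sU-seq. At steady state DKC1 had 156, 155 and 176 CPM in KO and 246, 237 and 253 CPM in Ctrl libraries of RNA-seq. All KO libraries were below all Ctrl libraries; the steady-state fall was called (−0.59 ± 0.06, adjusted p = 4.39e-06) and the nascent one was just outside the threshold (−0.62 ± 0.17, adjusted p = 0.0513). GAR1, a small protein of the same core, fell in both assays (−0.48 ± 0.11, adjusted p = 0.0266 and −0.35 ± 0.09, adjusted p = 0.00756); its RNA-seq groups overlapped, with KO replicate 3 above Ctrl replicate 1. NHP2 and NOP10, the other core proteins, were called in neither (−0.09 ± 0.25, adjusted p = 0.831 and −0.13 ± 0.06, adjusted p = 0.0915 for NHP2; 0.05 ± 0.23, adjusted p = 0.899 and 0.11 ± 0.06, adjusted p = 0.139 for NOP10). When KO replicate 2 was left out, 3 of the 4 were called lower in nascent RNA, DKC1 (−0.89 ± 0.09, adjusted p = 0.000494), GAR1 (−0.55 ± 0.10, adjusted p = 0.00362) and NHP2 (−0.48 ± 0.12, adjusted p = 0.0118), and NOP10 stood at −0.30, not called. In RNA-seq every KO library of NOP10 was above every Ctrl library, with a mean of 99.8 ± 1.26 CPM in KO against 92.2 ± 6.14 CPM in Ctrl (SD, n = 3 each). Factors that assemble snoRNA particles were measured as a further list of 10: 1 fell in nascent RNA (3 without KO replicate 2), and 7 fell and 3 rose in RNA-seq. Of all genes 6.98% fell in nascent RNA (28.4% without KO replicate 2), and 26.8% fell and 21.5% rose in RNA-seq. The 3 lower without KO replicate 2 were near that share. RUVBL1, an ATPase of the assembly complex, fell in both assays (−0.50 ± 0.12, adjusted p = 0.0350, and −0.46 ± 0.06, adjusted p = 1.87e-05). The box C/D assembly factor NUFIP1 (−0.70 ± 0.06, adjusted p = 4.22e-07), the box H/ACA assembly factor SHQ1 (−0.65 ± 0.05, adjusted p = 5.68e-07) and ZNHIT6 (−0.48 ± 0.06, adjusted p = 1.20e-05) fell at steady state.

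Of the small-subunit factors, 13 of 14 members were called lower in RNA-seq (median −0.46), all but UTP14A, and 4 of the 13 tested in nascent RNA (median −0.53). Of all genes 26.8% and 6.98% were called lower in these assays. UTP6, a processome protein, had 38.5, 38.0 and 39.0 CPM in KO and 60.1, 60.7 and 59.2 CPM in Ctrl libraries of 4sU-seq. At steady state UTP6 had 67.4, 65.2 and 67.9 CPM in KO and 103, 104 and 109 CPM in Ctrl libraries of RNA-seq. Its groups were apart and it fell in both assays (−0.64 ± 0.10, adjusted p = 0.00732 and −0.66 ± 0.06, adjusted p = 7.25e-07), and its nascent call did not hold with ERCC scaling, or when Ctrl replicate 1 or 2 was left out. HEATR1, a large processome scaffold, had 124, 124 and 127 CPM in KO and 165, 163 and 174 CPM in Ctrl libraries of 4sU-seq. At steady state HEATR1 had 203, 204 and 218 CPM in KO and 292, 307 and 294 CPM in Ctrl libraries of RNA-seq. It fell in both without overlap (−0.42 ± 0.09, adjusted p = 0.0209 and −0.51 ± 0.05, adjusted p = 5.26e-06). UTP20, another large scaffold, had 117, 107 and 131 CPM in KO and 173, 165 and 189 CPM in Ctrl libraries of 4sU-seq. At steady state UTP20 had 149, 142 and 146 CPM in KO and 204, 199.6 and 191 CPM in Ctrl libraries of RNA-seq. Its groups were apart in both assays and both falls were called (−0.57 ± 0.12, adjusted p = 0.0199 and −0.45 ± 0.05, adjusted p = 1.63e-05). The fourth nascent call was LTV1, which acts late in small-subunit export and maturation (−0.53 ± 0.11, adjusted p = 0.0201 in nascent RNA and −0.31 ± 0.06, adjusted p = 0.000676 at steady state).

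NOP14, a processome protein, had the largest steady-state fall of all members, with 143, 142 and 148 CPM in KO and 256, 224 and 243 CPM in Ctrl libraries of RNA-seq and no overlap (−0.74 ± 0.06, adjusted p = 5.00e-07). In 4sU-seq it had 15.5, 22.6 and 15.0 CPM in KO and 24.9, 25.7 and 23.0 CPM in Ctrl libraries, and was not called (−0.47 ± 0.19, adjusted p = 0.127). Without KO replicate 2 it was called lower there (−0.76 ± 0.09, adjusted p = 0.000889). RRP12, which serves both subunits, had 79.9, 129.6 and 75.3 CPM in KO and 129, 146 and 121 CPM in Ctrl libraries of 4sU-seq, where KO replicate 2 overlapped Ctrl (−0.48 ± 0.23, adjusted p = 0.193). At steady state RRP12 had 98.8, 99.1 and 97.0 CPM in KO and 164, 149.5 and 156 CPM in Ctrl libraries of RNA-seq and fell without overlap (−0.67 ± 0.06, adjusted p = 6.28e-07). BYSL, bystin, had 66.6, 102 and 58.4 CPM in KO and 118, 132 and 113 CPM in Ctrl libraries of 4sU-seq. At steady state BYSL had 64.2, 62.5 and 62.2 CPM in KO and 91.1, 89.2 and 98.5 CPM in Ctrl libraries of RNA-seq. Both pairs of groups were apart, with the fall called at steady state (−0.56 ± 0.06, adjusted p = 4.40e-06) and not in nascent RNA (−0.67 ± 0.22, adjusted p = 0.0794). RRP9, which binds the U3 snoRNA, showed the largest nascent difference of any member and one of the widest spreads, with 42.8, 76.9 and 40.1 CPM in KO and 79.0, 99.6 and 82.7 CPM in Ctrl libraries of 4sU-seq. KO replicate 2 lay just below the lowest Ctrl library, and the difference was not called (−0.71 ± 0.27, adjusted p = 0.119). In RNA-seq RRP9 had 99.6, 99.2 and 92.1 CPM in KO and 135, 133 and 147 CPM in Ctrl libraries and fell (−0.51 ± 0.06, adjusted p = 1.45e-05).

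NOL6 had 43.0, 76.5 and 40.1 CPM in KO and 72.6, 87.9 and 70.7 CPM in Ctrl libraries of 4sU-seq, with KO replicate 2 inside the Ctrl range (−0.54 ± 0.27, adjusted p = 0.216). At steady state NOL6 had 87.8, 86.6 and 81.9 CPM in KO and 123, 112 and 119 CPM in Ctrl libraries of RNA-seq, apart, and fell (−0.47 ± 0.06, adjusted p = 2.42e-05). NOB1, the nuclease that trims the small-subunit RNA at its end, had 67.5, 102 and 65.1 CPM in KO and 110.1, 122 and 108 CPM in Ctrl libraries of 4sU-seq. At steady state NOB1 had 99.9, 103 and 106 CPM in KO and 145, 128 and 142 CPM in Ctrl libraries of RNA-seq. Neither assay showed overlap, and the fall was called at steady state (−0.43 ± 0.06, adjusted p = 6.35e-05; −0.53 ± 0.20, adjusted p = 0.108 in nascent RNA). UTP15, a processome protein, had 43.1, 37.6 and 46.7 CPM in KO and 54.8, 55.2 and 61.6 CPM in Ctrl libraries of 4sU-seq. At steady state UTP15 had 109.5, 109 and 113 CPM in KO and 134, 142 and 149 CPM in Ctrl libraries of RNA-seq. It was apart in both and called in RNA-seq (−0.36 ± 0.06, adjusted p = 0.000163; −0.43 ± 0.13, adjusted p = 0.0602 in nascent RNA). WDR43 and WDR75, both processome proteins of the same subcomplex, fell at steady state (−0.34 ± 0.06, adjusted p = 0.000277 and −0.15 ± 0.06, adjusted p = 0.0364), were not called in nascent RNA and were not called there either without KO replicate 2 (−0.09 ± 0.11, adjusted p = 0.522 and −0.22 ± 0.14, adjusted p = 0.206). The steady-state call of WDR75 was lost, with its sign kept, under 12 of 16 alternatives, leaving out any 1 KO replicate among them. For both genes KO replicate 2 was the lowest KO library of 4sU-seq. UTP14A was listed at 0 in 4sU-seq and was not called in RNA-seq (−0.14 ± 0.07, adjusted p = 0.117). Without KO replicate 2 of 4sU-seq, 11 of the 13 small-subunit members tested were called lower in nascent RNA, the largest being RRP9 (−1.14 ± 0.13, adjusted p = 0.000609).

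A further list of 40 small-subunit factors had 8 of 35 tested lower in nascent RNA (median −0.34; 22 and −0.51 without KO replicate 2), and 31 lower and 1 higher of 40 in RNA-seq (median −0.35). By smallest p the nascent falls were led by EMG1, UTP18 (−0.60 ± 0.08, adjusted p = 0.00573) and WDR3 (−0.57 ± 0.09, adjusted p = 0.00943). EMG1 was near its floor of detection in 4sU-seq, at 0.0438 ± 0.0189 CPM in KO and 0.649 ± 0.130 CPM in Ctrl (SD, n = 3 each), so no fold is given. In RNA-seq the leading falls were DDX10, a helicase of the early processome (−0.95 ± 0.06, adjusted p = 4.88e-08), NAT10, the acetyltransferase of small-subunit RNA (−0.70 ± 0.06, adjusted p = 4.35e-07) and WDR46 (−0.67 ± 0.06, adjusted p = 1.11e-06). BMS1, a processome GTPase, was the 1 that rose (0.16 ± 0.06, adjusted p = 0.0459). Beside this list, 6.98% of all genes fell in nascent RNA (28.4% without KO replicate 2), and 26.8% fell and 21.5% rose in RNA-seq.

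Of the large-subunit factors, 8 of 9 members fell and 1 rose in RNA-seq (median −0.39), and 2 of 8 tested fell and 1 rose in nascent RNA (median −0.42). Of all genes 26.8% fell and 21.5% rose in RNA-seq, and 6.98% fell and 12.6% rose in nascent RNA. NOP2, a methyltransferase of large-subunit RNA, had 71.8, 121 and 73.2 CPM in KO and 130.2, 161 and 133 CPM in Ctrl libraries of 4sU-seq. At steady state NOP2 had 129.7, 130.4 and 133 CPM in KO and 222, 199 and 207 CPM in Ctrl libraries of RNA-seq. The groups were apart in both, with KO replicate 2 nearest to Ctrl in nascent RNA; the steady-state fall was called (−0.67 ± 0.06, adjusted p = 7.66e-07) and the nascent one was not (−0.68 ± 0.23, adjusted p = 0.0874). BOP1, PES1 and WDR12 form the PeBoW complex of large-subunit maturation. BOP1 had 117, 220.2 and 103 CPM in KO and 219.5, 257 and 205 CPM in Ctrl libraries of 4sU-seq, where KO replicate 2 overlapped Ctrl (−0.63 ± 0.30, adjusted p = 0.188), and 252, 253 and 247 CPM in KO and 389.6, 382 and 401 CPM in Ctrl libraries of RNA-seq, where the groups were apart and it fell (−0.64 ± 0.05, adjusted p = 3.76e-07). PES1 had 117, 209 and 109 CPM in KO and 179, 208 and 169.9 CPM in Ctrl libraries of 4sU-seq, with KO replicate 2 at the top of all 6 libraries (−0.36 ± 0.26, adjusted p = 0.392). In RNA-seq PES1 had 207, 208 and 211 CPM in KO and 273, 247 and 282 CPM in Ctrl libraries, apart, and fell (−0.36 ± 0.06, adjusted p = 0.000199). WDR12 also fell at steady state (−0.22 ± 0.06, adjusted p = 0.00567) and was not called in nascent RNA (−0.30 ± 0.14, adjusted p = 0.171).

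RRP1B had 126, 177 and 129 CPM in KO and 237, 246 and 219.8 CPM in Ctrl libraries of 4sU-seq. At steady state RRP1B had 203, 203 and 205 CPM in KO and 321, 309 and 312 CPM in Ctrl libraries of RNA-seq. It was apart in both assays and had the largest nascent fall among members called (−0.70 ± 0.16, adjusted p = 0.0250; steady −0.63 ± 0.05, adjusted p = 4.49e-07). NOC2L had 153, 288 and 139 CPM in KO and 219, 273 and 213 CPM in Ctrl libraries of 4sU-seq, where KO replicate 2 was the highest of all 6 libraries (−0.28 ± 0.29, adjusted p = 0.546). At steady state NOC2L had 363, 366 and 368 CPM in KO and 475, 463 and 496 CPM in Ctrl libraries of RNA-seq, apart, and fell (−0.39 ± 0.05, adjusted p = 4.68e-05). NOP16 was listed at 0 in 4sU-seq. At steady state NOP16 had 68.3, 65.1 and 72.1 CPM in KO and 88.1, 85.0 and 95.6 CPM in Ctrl libraries of RNA-seq, apart, and fell (−0.39 ± 0.06, adjusted p = 0.000221). The GTPase GNL2 fell in both assays (−0.48 ± 0.10, adjusted p = 0.0222 and −0.25 ± 0.06, adjusted p = 0.00439). When KO replicate 2 was left out, 6 of the 8 large-subunit members tested fell in nascent RNA, up to −1.12 ± 0.12, adjusted p = 0.000590 for BOP1, and WDR12 was not called (−0.28 ± 0.11, adjusted p = 0.0605).

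GNL3, nucleostemin, a nucleolar GTPase related to GNL2, moved the other way. It had 118, 126 and 130.1 CPM in KO and 85.1, 82.2 and 83.0 CPM in Ctrl libraries of 4sU-seq. At steady state GNL3 had 399, 383 and 393 CPM in KO and 196, 197 and 215 CPM in Ctrl libraries of RNA-seq. Every KO library was above every Ctrl library in both assays, KO replicate 2 of 4sU-seq included, and the gene rose in both (0.58 ± 0.10, adjusted p = 0.00945 in nascent RNA, 0.95 ± 0.06, adjusted p = 2.33e-08 at steady state). Its nascent call did not hold with ERCC scaling or when any 1 Ctrl replicate was left out, and held without KO replicate 2 (0.50 ± 0.09, adjusted p = 0.00290). A further list of 46 large-subunit factors had 7 of 42 tested lower in nascent RNA (median −0.33; 31 lower, 1 higher and −0.57 without KO replicate 2), and 38 lower and 2 higher of 46 in RNA-seq (median −0.34). The leading nascent falls were DDX55, a helicase (−0.70 ± 0.11, adjusted p = 0.00705), PWP1 (−0.59 ± 0.10, adjusted p = 0.00986) and MDN1, the giant ATPase midasin (−0.45 ± 0.08, adjusted p = 0.0119). In RNA-seq they were the helicase DDX27 (−0.65 ± 0.06, adjusted p = 1.30e-06), RRS1 (−0.64 ± 0.06, adjusted p = 1.80e-06) and CCDC86 (−0.63 ± 0.06, adjusted p = 2.39e-06). Beside this list, 6.98% of all genes fell in nascent RNA (28.4% without KO replicate 2), and 26.8% fell and 21.5% rose in RNA-seq. GNL3L, a relative of GNL3 in this list, is named after its values were seen; it fell at steady state (−0.43 ± 0.06, adjusted p = 6.39e-05).

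Of the nucleolar scaffold proteins and regulators, 4 of 5 fell in RNA-seq (median −0.37) and 1 of 5 in nascent RNA (median −0.33). NCL, nucleolin, had 501, 639.8 and 532 CPM in KO and 700.4, 709 and 688 CPM in Ctrl libraries of 4sU-seq. At steady state NCL had 1143, 1114 and 1222 CPM in KO and 1490.4, 1514 and 1679 CPM in Ctrl libraries of RNA-seq. Its groups were apart in both, and the fall was called at steady state (−0.43 ± 0.07, adjusted p = 0.000118; −0.33 ± 0.11, adjusted p = 0.0875 in nascent RNA). NPM1, nucleophosmin, had 623, 670.3 and 678 CPM in KO and 826, 851 and 852 CPM in Ctrl libraries of 4sU-seq, apart, and fell (−0.36 ± 0.08, adjusted p = 0.0218). In RNA-seq NPM1 had 1019, 1009 and 1086 CPM in KO and 969.6, 1104 and 1207 CPM in Ctrl libraries, which overlapped, and was not called (−0.08 ± 0.08, adjusted p = 0.442). NPM1 was the 1 member called lower in nascent RNA and not at steady state. MYBBP1A, a repressor of polymerase I, had 71.6, 128 and 68.0 CPM in KO and 112, 133 and 107 CPM in Ctrl libraries of 4sU-seq, with KO replicate 2 inside the Ctrl range (−0.40 ± 0.26, adjusted p = 0.337). At steady state MYBBP1A had 145, 152 and 149 CPM in KO and 217, 199.8 and 197 CPM in Ctrl libraries of RNA-seq, apart, and fell (−0.46 ± 0.06, adjusted p = 1.97e-05). DDX21, a nucleolar helicase, fell at steady state (−0.37 ± 0.06, adjusted p = 0.000273) and stood just outside the threshold in nascent RNA (−0.31 ± 0.09, adjusted p = 0.0516). NOLC1, which binds snoRNA particles, was at the threshold in RNA-seq (−0.14 ± 0.06, adjusted p = 0.0497), a call that most alternatives lost, and not called in nascent RNA (−0.26 ± 0.18, adjusted p = 0.363). All 5 scaffold members were called lower in nascent RNA when KO replicate 2 was left out. Of 23 subunits of the nuclear exosome and of ribonuclease MRP, which trim ribosomal RNA precursors, 4 of 21 tested fell in nascent RNA (15 without KO replicate 2). In RNA-seq 11 fell and 2 rose. The shares of all genes were 6.98% (28.4% without KO replicate 2) for nascent falls, and 26.8% and 21.5% for RNA-seq falls and rises. POP1 (−0.68 ± 0.09, adjusted p = 0.00442), EXOSC7 (−0.47 ± 0.10, adjusted p = 0.0216) and RPP40 (−0.62 ± 0.14, adjusted p = 0.0241) led in nascent RNA, and RPP40 (−0.50 ± 0.06, adjusted p = 2.34e-05), EXOSC7 (−0.41 ± 0.05, adjusted p = 3.73e-05) and EXOSC10 (−0.44 ± 0.06, adjusted p = 3.87e-05) at steady state.

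Set side by side, 9 of the 37 members tested in both assays fell in both, 1 rose in both, 24 fell only at steady state by the threshold, 1 fell only in nascent RNA and 2 were called in neither. The threshold counts do not show that the assays differ, since the standard errors had a median of 0.18 in 4sU-seq and 0.06 in RNA-seq. The difference itself, nascent minus steady-state change, was called by edgeR for 0 of 37 members, with 2 at an unadjusted p below 0.05 and 2.5% of 15863 genes called (1.25% as lower and 1.25% as higher). DESeq2 called 1, GNL3, whose nascent rise was smaller than its steady-state rise (−0.37 ± 0.09, adjusted p = 0.00184; edgeR −0.36 ± 0.10, adjusted p = 0.0850). NPM1 was the other with an unadjusted p below 0.05 (−0.28 ± 0.12, adjusted p = 0.260). The differences ranged from −0.36 to 0.26, with standard errors of 0.09 to 0.29. Leaving out KO replicate 2 of 4sU-seq, 11 members were called lower and 1 higher (27.5% of all genes called, 12.4% as lower): RRP9 had the largest difference (−0.53 ± 0.13, adjusted p = 0.0120), and WDR43 was the 1 called higher, its nascent change being nearer 0 than its steady-state change (0.35 ± 0.12, adjusted p = 0.0414). This fit kept Ctrl replicate 2 of 4sU-seq, which varied like KO replicate 2, and the difference was not fitted without both. Across the 37 members the changes in both assays had Pearson's r = 0.89 and Spearman's rho = 0.76, and 0.78 and 0.74 without GNL3. These describe genes measured in the same libraries, which are not independent replicates.

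**Figure D3:**
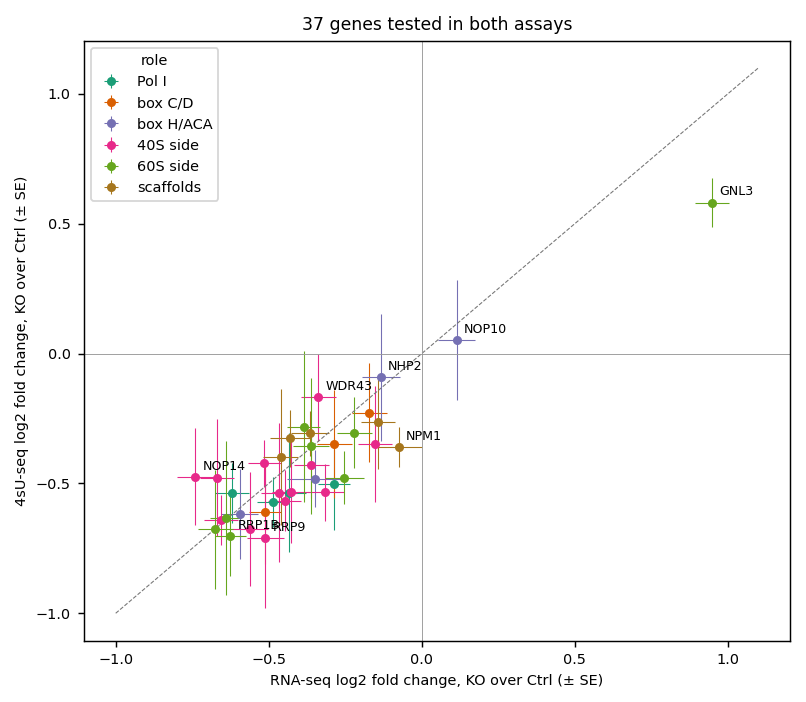
Each point is 1 of the 37 members tested in both assays, with the RNA-seq log2 change of KO over Ctrl on the x axis and the 4sU-seq log2 change on the y axis; bars are standard errors, colours are roles and the dashed line marks equal change. Points lie along the line at the lower left, with wider bars in 4sU-seq, and GNL3 stands alone at the upper right, at 0.95 and 0.58.

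The position of KO replicate 2 among the KO libraries differed between members. Among the KO libraries of 4sU-seq it was the highest for 23 of 37 members (62.2%, against 46.9% of all genes tested), and KO replicate 3 was the highest for the other 14. For 22 members every KO library of 4sU-seq lay below every Ctrl library, against 17.8% of all genes tested and 19.7% of protein-coding genes. In RNA-seq this held for 33 of 40 members, against 29.9% of all genes tested and 38.6% of protein-coding genes. Gene span, the length from a gene's start to its end, was compared with the nascent change as a description. Protein-coding genes had a median nascent change of −0.04 under 10 kb, −0.07 from 10 to 30 kb, −0.00 from 30 to 100 kb and 0.24 over 100 kb, and the members had −0.48 (n = 5), −0.48 (n = 17), −0.45 (n = 12) and −0.44 (n = 2). Without KO replicate 2 these medians were −0.34, −0.24, −0.03 and 0.36 for protein-coding genes and −0.55, −0.76, −0.70 and −0.42 for the members.

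Counting in the tables limits a few members. RRN3, UTP14A and NOP16 were listed at 0 in all 6 4sU-seq libraries, while each had 2320 to 4304 counts in every RNA-seq library. Of 7233 genes with a mean of at least 1000 RNA-seq counts, 339 (4.69%) were also at 0 throughout 4sU-seq, so a 0 there need not mean that no RNA was made. Near-identical copies were counted as rows of their own. The 3 RRN3 pseudogenes held 16.6% as many RNA-seq counts as RRN3, and with them added RRN3 still fell (−0.28 ± 0.08, adjusted p = 0.00888). UTP14C, a retrocopy of UTP14A, held 40.4% as many as UTP14A (together −0.08 ± 0.06, adjusted p = 0.282). The 45 NPM1 pseudogene rows held 34.9% as many as NPM1 in RNA-seq and 1.42% in 4sU-seq, and NPM1 with them added was not called at steady state (−0.07 ± 0.07, adjusted p = 0.453). Per kilobase of merged exons in GENCODE 29, NPM1 was the most abundant member in RNA-seq with 271 ± 10.9 CPM per kb in KO and 286 ± 31.1 in Ctrl. NCL had 167 ± 8.03 in KO and 225 ± 14.9 in Ctrl and NOP10 had 180.1 ± 2.27 in KO and 166 ± 11.1 in Ctrl, and POLR1C was the lowest of the 38 with a length, at 10.3 ± 0.268 in KO and 12.6 ± 0.241 in Ctrl (SD, n = 3 each). GNL3 had 118 ± 2.49 CPM per kb in KO and 61.1 ± 3.21 in Ctrl. The gene IDs of the FBL and RRN3 rows had no match in the GENCODE 29 coordinates, so these members had no length.

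The region around GNL3 was looked at after its values were seen. On hg38 with GENCODE 29 coordinates GNL3 (ENSG00000163938) lies on the plus strand of chromosome 3 from 52681156 to 52694492. Its span overlaps those of PBRM1, on the minus strand from 52545352 to 52685917, and of GLT8D1, on the minus strand from 52694488 to 52706032. The RefSeq start of GNL3 lies further along. The 30 bases before it, 52685890 to 52685919, hold the start of PBRM1, so by RefSeq GNL3 and PBRM1 start back to back. The strand setting of the counts is not given, so reads of overlapping exons may not be told apart. PBRM1, a chromatin remodelling subunit, had 111, 108 and 111 CPM in KO and 75.1, 74.5 and 74.0 CPM in Ctrl libraries of RNA-seq. GLT8D1, a glycosyltransferase, had 44.3, 46.3 and 43.1 CPM in KO and 27.7, 28.1 and 28.7 CPM in Ctrl libraries. SPCS1, a signal peptidase subunit, had 80.3, 81.6 and 88.9 CPM in KO and 48.1, 49.9 and 54.9 CPM in Ctrl libraries, and the kinase gene NEK4 had 61.4, 60.8 and 58.9 CPM in KO and 42.7, 39.6 and 41.9 CPM in Ctrl libraries. None of these groups overlapped. The 5 neighbouring genes PBRM1, GNL3, GLT8D1, SPCS1 and NEK4 rose in RNA-seq, by 0.54 to 0.95 (PBRM1 0.56 ± 0.05, adjusted p = 1.85e-06; GLT8D1 0.66 ± 0.05, adjusted p = 5.22e-07; SPCS1 0.72 ± 0.07, adjusted p = 1.55e-06; NEK4 0.54 ± 0.05, adjusted p = 3.39e-06). Within 250 kb on either side 17 genes were tested in RNA-seq, of which 10 rose, GNL3 and both snoRNAs inside it included, and 1, NISCH, fell, beside 21.5% and 26.8% of all genes. Of 13 tested in nascent RNA GNL3 was the 1 called, beside 19.6% of all genes. PBRM1 had a nascent change of 0.62 ± 0.21, GLT8D1 of 0.41 ± 0.13 and SPCS1 of 0.68 ± 0.29, none called, and NEK4 of −0.07 ± 0.11. Without KO replicate 2, GNL3 and PBRM1 (0.73 ± 0.13, adjusted p = 0.00350) were called higher in nascent RNA, SPCS1 stood at 0.22 and GLT8D1 at 0.26, and 4 of the 13 genes (NISCH, STAB1, NT5DC2 and SMIM4) were called lower. In that fit 25.4% of all genes were called higher and 28.4% lower, so these counts were near or below the shares.

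**Figure D4:**
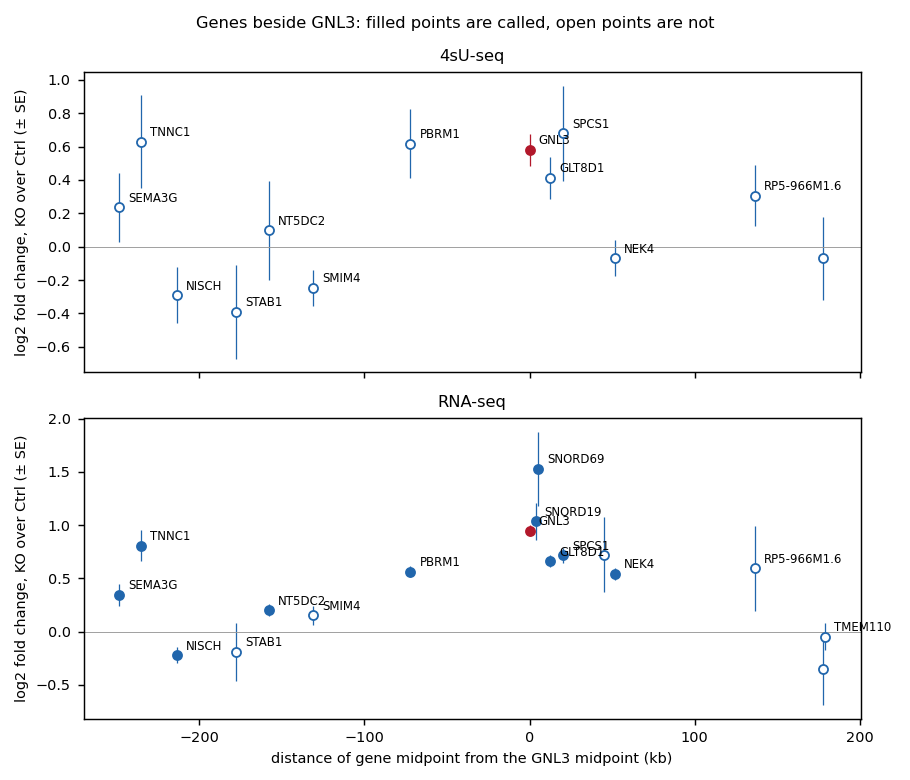
Points are genes tested within 250 kb of GNL3, placed by the distance of their midpoint from that of GNL3 in kb, with the log2 change of KO over Ctrl ± its standard error in 4sU-seq (top) and RNA-seq (bottom); filled points are called at an adjusted p below 0.05 and GNL3 is red. In RNA-seq PBRM1, GNL3, GLT8D1, SPCS1 and NEK4 lie between 0.54 and 0.95, and in 4sU-seq NEK4 lies at −0.07.

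Introns of 6 members hold snoRNA rows of their own, 15 in all, each of them at 0 counts throughout 4sU-seq. Of the 8 tested in RNA-seq 2 rose and the others were not called, where 21.5% of all genes rose. Both that rose lie in GNL3: SNORD19 had 69, 73 and 61 counts in KO and 33, 35 and 28 counts in Ctrl libraries (1.04 ± 0.17, adjusted p = 0.000217), and SNORD69 had 20, 39 and 19 counts in KO and 13, 5 and 8 counts in Ctrl libraries (1.53 ± 0.35, adjusted p = 0.00248). Fragments of the host transcript can be counted in such rows, and this was not tested. Those in NOP58, WDR43 and NCL were not called, with changes from −0.18 to 0.39.

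Genes whose GENCODE 29 start lies within 1000 bases of a member's start on the opposite strand were compared as neighbours of 16 members. By these starts PBRM1 was not counted beside GNL3. In RNA-seq 5 of 12 tested fell and 3 rose, where 26.8% and 21.5% of all genes did. In nascent RNA 2 of 13 fell and 2 rose, beside 6.98% and 12.6% of all genes, and without KO replicate 2 6 fell and 3 rose, beside 28.4% and 25.4%. PTCD3, a mitochondrial ribosome factor whose start lies 27 bases from that of POLR1A, fell in both assays (−0.36 ± 0.08, adjusted p = 0.0306, and −0.21 ± 0.06, adjusted p = 0.00745). PGAM1 beside RRP12, MED20 beside BYSL, HIGD2A beside NOP16 and HSF1 beside BOP1 fell at steady state, with log2 changes of −0.26, −0.30, −0.25 and −0.31. HSF2BP beside RRP1B fell in nascent RNA (−0.63 ± 0.11, adjusted p = 0.0131). ANKRA2, 243 bases from UTP15, rose in both assays (0.89 ± 0.12, adjusted p = 0.00576, and 0.78 ± 0.09, adjusted p = 6.65e-06) while UTP15 fell at steady state. TCN2, 245 bases from PES1, likewise rose in both (1.15 ± 0.21, adjusted p = 0.0126, and 1.09 ± 0.16, adjusted p = 7.49e-05), and NBEAL1 beside WDR12 rose at steady state (0.87 ± 0.08, adjusted p = 2.30e-06). LRRC73 beside POLR1C, PARP3 beside RRP9 and GRK4 beside NOP14 were called in neither assay, and neither were RP5-882C2.2 beside UBTF and MIR3912 beside NPM1 in nascent RNA; without KO replicate 2 MIR3912 was called lower. The noncoding genes AC126283.1 beside GAR1 and AL513220.1 beside GNL2 had no test.

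Promoters of the members were searched for the letters CACGTG, the E-box that MYC and other factors of its family bind; it reads the same on both strands. RefSeq promoters of GRCh38.p14, from 250 bases before to 50 after a start, matched 35 of the 40 symbols, and 14 of these 35 (40%) held the letters. They were held by 9.99% of 10973 promoters of genes tested in RNA-seq and by 7.26% of all 35116 promoters. The 13 of these 14 members tested in nascent RNA had a median change of −0.48 and the 19 without the letters one of −0.43; at steady state the medians were −0.40 and −0.39, and in nascent RNA without KO replicate 2 they were −0.76 and −0.55. A match describes the letters only. The upstream 250 bases of UTP20 (chr12:101279855-101280104, plus strand), which overlap no GENCODE 29 exon, and stretches of 30 bases around the letters in other members with small RNA-seq p-values are shown as examples, 6 of the 14 promoters counted; capitals mark CACGTG. The others lie on the minus strand at chr3:51941892-51941921 (RRP9), chr4:2963374-2963403 (NOP14), chr12:6568242-6568271 (NOP2) and chr9:33473894-33473923 (NOL6), and on the plus strand at chr6:41921515-41921544 (BYSL).
UTP20: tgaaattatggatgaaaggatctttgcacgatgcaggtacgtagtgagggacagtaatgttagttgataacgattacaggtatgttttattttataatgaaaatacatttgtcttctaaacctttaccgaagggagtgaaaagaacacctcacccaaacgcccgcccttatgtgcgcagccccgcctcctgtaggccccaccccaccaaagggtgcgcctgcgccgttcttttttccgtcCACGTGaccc
RRP9: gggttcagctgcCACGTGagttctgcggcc
NOP14: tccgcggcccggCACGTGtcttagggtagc
NOP2: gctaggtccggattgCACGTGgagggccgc
BYSL: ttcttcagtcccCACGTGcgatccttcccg
NOL6: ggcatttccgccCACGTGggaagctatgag
In UTP20 the letters begin 10 bases before the start and in RRP9 5 bases before it; in NOP14, NOP2, BYSL and NOL6 they begin at bases 16, 36, 29 and 14 of the transcribed part. NOP10, which was called in neither assay, held the letters in 2 places, and GNL3 was among the 21 without them. MYC, named after its values were seen, had 319.9, 493 and 304 CPM in KO and 333, 381 and 294 CPM in Ctrl libraries of 4sU-seq, overlapping and not called (0.15 ± 0.21, adjusted p = 0.664; −0.18 without KO replicate 2, not called). In RNA-seq MYC had 276, 287 and 291 CPM in KO and 432, 389 and 421 CPM in Ctrl libraries, apart, and fell (−0.54 ± 0.06, adjusted p = 5.03e-06). Its part in the members' changes was not tested.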

How the data were processed

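RNA of 3 PPM1G KO and 3 Ctrl libraries was measured by 4sU-seq and by RNA-seq, 12 libraries in 4 groups. The authors deposited raw counts per gene and per ERCC species. Per the submitters' processing notes, FastQC 0.11.2, HISAT2 2.1.0, SAMtools 1.3 and featureCounts were used with hg38; of the annotation, counted feature and strand setting nothing is stated, and no row is named for the ribosomal RNA precursor.

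Each assay was fitted alone with edgeR 4.0.16 (R 4.3.3) after TMM scaling and filterByExpr (minimum count 10), without the 92 ERCC rows: glmQLFit and glmQLFTest, two-sided, Benjamini-Hochberg adjusted over all genes tested, threshold 0.05. Standard errors were taken as |log2 change| over the root of the F statistic. The difference between assays was a genotype-by-assay term fitted to the 12 libraries together. The scripts' tests were tried on simulated data. DESeq2 1.42.0, other scalings and filters, left-out libraries, a replicate block and summed RNA-seq KO replicates 1 and 2, whose counts differed by a chi-square of 1.07 per gene (p = 0.000106), were alternatives. The summed libraries, the added pseudogene counts and the neighbour, GNL3-region and promoter values without KO replicate 2 were chosen after seeing the data.

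The ERCC share of counts was 0.0371 ± 0.0170% in KO and 0.0371 ± 0.00775% in Ctrl libraries of 4sU-seq (exact two-sided permutation p = 1), and 0.559 ± 0.0197% in KO and 0.524 ± 0.0422% in Ctrl libraries of RNA-seq (exact permutation p = 0.4; SD, n = 3; smallest possible p 0.1). GENCODE 29 coordinates matched 94.3% of gene IDs. All 40 members could be named; values in every library are given for the 24 with the smallest p over the 3 tests and for 8 set members, and from each other list up to 3 called genes per assay with the smallest p. The members and lists were chosen with earlier results of these data known.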

Additional observations from a re-analysis of the deposited data

How the results depend on the processing

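Relative to the median of all genes, the members' median stood at −0.53 in 4sU-seq, −0.54 under ERCC scaling and −0.52 under library size alone, and at −0.39 in RNA-seq under all 3. These scalings moved the median of all genes to 0.27 and 0.14 in 4sU-seq and to 0.08 and 0.19 in RNA-seq, and the genes called higher and lower from 2684 and 1482 to 672 and 44 (ERCC) and 3100 and 858 (library size) in 4sU-seq, and from 4398 and 5473 to 4372 and 2731 and to 7423 and 2823 in RNA-seq. In 4sU-seq the 10 members called lower became 0 under ERCC scaling, 6 under library size, 18 by DESeq2, 24 with all 12 libraries in 1 fit and 31 with both replicates numbered 2 left out; leaving out 1 library gave 0 to 31 (1, 31 and 6 without KO replicates 1, 2 and 3; 0, 0 and 2 without Ctrl replicates 1, 2 and 3). The 1 member called higher became 0 under ERCC scaling, and 0 to 1 with 1 library left out. The share of all genes called lower in 4sU-seq moved as well. It was 11.4% by DESeq2, 15.9% with all 12 libraries in 1 fit and 24.8% with both replicates numbered 2 left out. Without KO replicates 1, 2 and 3 it was 1.56%, 28.4% and 3.43%, and without Ctrl replicates 1, 2 and 3 it was 1.23%, 1.46% and 2.36%.

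In RNA-seq the members' median was −0.30 under ERCC scaling, −0.20 under library size, −0.32 with a mean of at least 50 counts, −0.33 with the length trend removed and −0.44 to −0.32 with 1 library left out. Members called lower were 18 with all 12 libraries in 1 fit, where 13.2% of all genes were called lower. Members called higher were 2, NOP10 added, under library size, a mean of at least 50 counts and the length trend, and 1 to 2 with 1 library left out. Under library size the changes of NOP58 (0.014), WDR75 (0.033) and NOLC1 (0.042) turned sign, none called. In the difference between assays 1 member was called lower under library size, under a mean of at least 50 counts and by DESeq2, and 0 to 11 lower and 0 to 1 higher with 1 library left out. The causes of these shifts were not tested.

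The main fits did not treat same-numbered KO and Ctrl libraries as pairs. Their deviations from the group means had r = −0.18, 0.91 and 0.88 in 4sU-seq and −0.11, 0.29 and 0.39 in RNA-seq. In 4sU-seq replicates 2 and 3 thus varied alike in both genotypes, and replicate 1 did not. Whether same-numbered libraries shared a batch was not tested. With the replicate block 25 members were called lower in 4sU-seq, where 13% of all genes were. All genes called became 6907 in place of 4166 in 4sU-seq, 10384 in place of 9871 in RNA-seq and 657 in place of 397 in the difference. Rows with few counts, such as SNORD69, are limited by depth as well as by the spread of 3 libraries per group.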
